A study of Homo sapiens with 8 samples.

Results

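Matricellular proteins are secreted into the extracellular matrix but act more on cell behaviour than on tissue structure. They bind integrins, CD44 and other receptors, and they are known for roles in wound repair and in the invasive margin of carcinomas. The 7 genes described here are SPP1 (osteopontin, a phosphorylated ligand of CD44 and integrins), TNC (tenascin C, which weakens cell adhesion to fibronectin), THBS1 (thrombospondin 1, an activator of latent TGF-beta and a CD47 ligand), SPARC (osteonectin, a collagen binder), and the relatives FN1 (fibronectin), FBN1 (fibrillin 1, the main subunit of microfibrils) and GPNMB (a transmembrane glycoprotein of lysosomes and the cell surface). They were taken by gene name, and each name occurred in 1 of the 48162 rows listed in every library. They had been proposed with results of these libraries in view: TNC was already known to be lower with knockdown, and GPNMB and FBN1 to differ with overexpression. All values of the 7 genes are therefore given as a description, without a test.

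The libraries come from KYSE70 and KYSE450, human esophageal squamous cell carcinoma lines at passages 5 to 10, in which the long noncoding RNA NMR was raised with a transfected plasmid or lowered with a lentivirus packaged in HEK 293T cells. Each of the 4 groups holds 2 libraries, 1 per line: the plasmid control, NMR overexpression, the lentiviral control and NMR knockdown. No library of a line is repeated within a group, the labels do not say whether infected cells were pools or clones, and the level of NMR itself was not analysed here. Delivery, control construct and anything else that was shared within the plasmid or the lentiviral arm cannot be told apart. In bulk RNA, fewer cells of a type and less RNA per cell cannot be told apart either. The depth was 26401805 to 37937856 recovered reads per library. Mitochondrially encoded genes took 8.63% of the FPKM sum in the KYSE70 knockdown library against 3.84% to 5.75% in the others. That library's change from its control also followed GC content across genes (Spearman -0.483, against 0.042 in KYSE450, where genes are not independent replicates), and its part in the KYSE70 knockdown values below was not tested beyond the values given with these trends removed.

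All 9 squamous markers were at 1 FPKM or more in some library, with sums of 7725 to 15766 FPKM in KYSE70 and 10189 to 26824 in KYSE450, and KRT5 reached 19246 FPKM. Macrophage markers, which matter because macrophages are a known source of SPP1 and GPNMB, were low. The 7 summed to 0.723 to 2.06 FPKM in KYSE70 and 0.396 to 0.816 in KYSE450. CSF1R was highest, at up to 1.41 FPKM, and TYROBP had 0 in every library. Of 5 melanocyte markers, 3 reached 1 FPKM and their sum was 3.17 to 6.56 FPKM in KYSE70 and 2.74 to 3.60 in KYSE450, with MLANA highest at up to 5.06. Of 8 fibroblast markers, 4 reached 1 FPKM. The sum of the 8 was 32.7 to 63.8 FPKM in KYSE70 and 32.4 to 40.0 in KYSE450, with COL1A1 highest at up to 37.0. COL3A1 had 3.80 to 21.9 FPKM in KYSE70 and 0.617 to 3.81 in KYSE450. THY1 had 4.12 to 14.6 FPKM in KYSE70 and at most 0.219 in KYSE450, and LUM reached 1.09. DCN stayed at or under 0.0336 FPKM.

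The stretches around the start sites of SPP1, TNC, THBS1 and GPNMB are shown because these 4 genes take up most of the account below. Each runs from 250 bases before to 50 after the start that RefSeq gives on GRCh38.p14, on the gene's own strand: chr4:87975464-87975763 for SPP1 (plus strand), chr9:115118108-115118407 for TNC (minus), chr15:39580829-39581128 for THBS1 (plus) and chr7:23246525-23246824 for GPNMB (plus). Capitals mark letters searched on both strands for AP-1 (TGANTCA), TEAD (GGAATG), RUNX (TGTGGT), the TATA box (TATAA), and the E-box (CACGTG) and M-box (TCATGTGA) of MITF and TFE factors. No match overlapped another.
SPP1: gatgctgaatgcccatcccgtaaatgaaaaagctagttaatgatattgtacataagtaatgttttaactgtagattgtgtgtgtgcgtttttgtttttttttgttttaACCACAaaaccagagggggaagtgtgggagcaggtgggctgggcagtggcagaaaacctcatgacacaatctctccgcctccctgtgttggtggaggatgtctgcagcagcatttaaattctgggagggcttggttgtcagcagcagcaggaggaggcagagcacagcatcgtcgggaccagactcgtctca
TNC: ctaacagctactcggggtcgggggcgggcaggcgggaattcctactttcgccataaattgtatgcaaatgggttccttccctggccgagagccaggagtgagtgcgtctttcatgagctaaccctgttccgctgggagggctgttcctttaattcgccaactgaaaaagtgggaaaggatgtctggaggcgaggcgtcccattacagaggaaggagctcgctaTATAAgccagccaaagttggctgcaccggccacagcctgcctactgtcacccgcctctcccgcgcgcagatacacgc
THBS1: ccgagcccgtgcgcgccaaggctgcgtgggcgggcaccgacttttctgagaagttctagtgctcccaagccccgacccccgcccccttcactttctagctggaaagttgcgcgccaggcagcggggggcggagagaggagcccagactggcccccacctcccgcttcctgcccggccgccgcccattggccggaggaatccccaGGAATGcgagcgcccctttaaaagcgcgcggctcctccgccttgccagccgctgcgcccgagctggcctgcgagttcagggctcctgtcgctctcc
GPNMB: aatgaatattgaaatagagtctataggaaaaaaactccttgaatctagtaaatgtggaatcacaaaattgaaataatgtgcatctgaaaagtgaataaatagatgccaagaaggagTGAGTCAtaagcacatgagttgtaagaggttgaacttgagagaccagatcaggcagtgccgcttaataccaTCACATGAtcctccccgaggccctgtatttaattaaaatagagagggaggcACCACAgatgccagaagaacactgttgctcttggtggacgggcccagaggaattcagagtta
Positions are those of a match's first base, with negative ones before the start. GPNMB held matches to 3 of the 6 motifs: TGAGTCA of AP-1 at -134, TCACATGA, the M-box on the other strand, at -63, and RUNX at -12. The same letters occurred in 7.71%, 1.0% and 13.1% of 35116 RefSeq promoter windows of 300 bases. SPP1 held RUNX at -142. TNC held the TATA box at -27 (20.4% of windows), as did FN1 at -28. THBS1, SPARC and FBN1 each held TEAD at -46, -17 and -58 (14.0% of windows), and none of the 7 windows held CACGTG (7.26%). The letters for TATA and the M-box were set after the sequences had been seen. A match describes the letters only, and no motif was shared by more than 3 of the 7 genes.

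SPP1 was the gene that set the lines furthest apart. In KYSE70 it stood at 172 FPKM in the plasmid control, 498 with overexpression, 342 in the lentiviral control and 234 with knockdown. In KYSE450 the same libraries held 0.501, 0.107, 0.0549 and 0.428 FPKM, from 13, 3, 2 and 12 reads. All 4 KYSE70 libraries thus lay above all 4 KYSE450 libraries, by 343-fold to 6229-fold within a group. The KYSE450 reads are few enough for a trace of the other line to matter: 12 further genes with at least 50 FPKM in every KYSE70 library and on average under 1% of that in KYSE450 had a median of 0.353% of their KYSE70 mean in the KYSE450 plasmid control, 0.153% with overexpression, 0.160% in the lentiviral control and 0.349% with knockdown. SPP1 stood at 0.161%, 0.0344%, 0.0176% and 0.138% of its KYSE70 mean in the same order, high and low in the same libraries as the median of those genes. The 12 genes were not uniform. Their highest percentages went the other way, at 0.775%, 1.22%, 1.03% and 0.754% in the same order. The source of these reads was not tested.

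Within KYSE70, SPP1 was 2.90 times its control with overexpression (95% interval 2.80 to 2.99, exact binomial on the reads, counting error only) and 0.682 times its control with knockdown (0.660 to 0.705). The 2 controls of that line differed by 1.99 times (1.92 to 2.06), which is more than the knockdown difference, and the knockdown library lay between them. With 1 library per group and line, the spread between repeated libraries cannot be given, and these intervals do not hold it. CD44, the receptor of osteopontin, was among the most abundant of its list in both lines, at 765 to 991 FPKM in KYSE70 and 290 to 525 in KYSE450. It was lower in KYSE450 by a log2(FPKM + 1) difference of -1.24 (SE 0.15, n = 4 pairs, adjusted p 0.000585 in limma, lower in 4 of 4 groups).

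**Figure D1:**
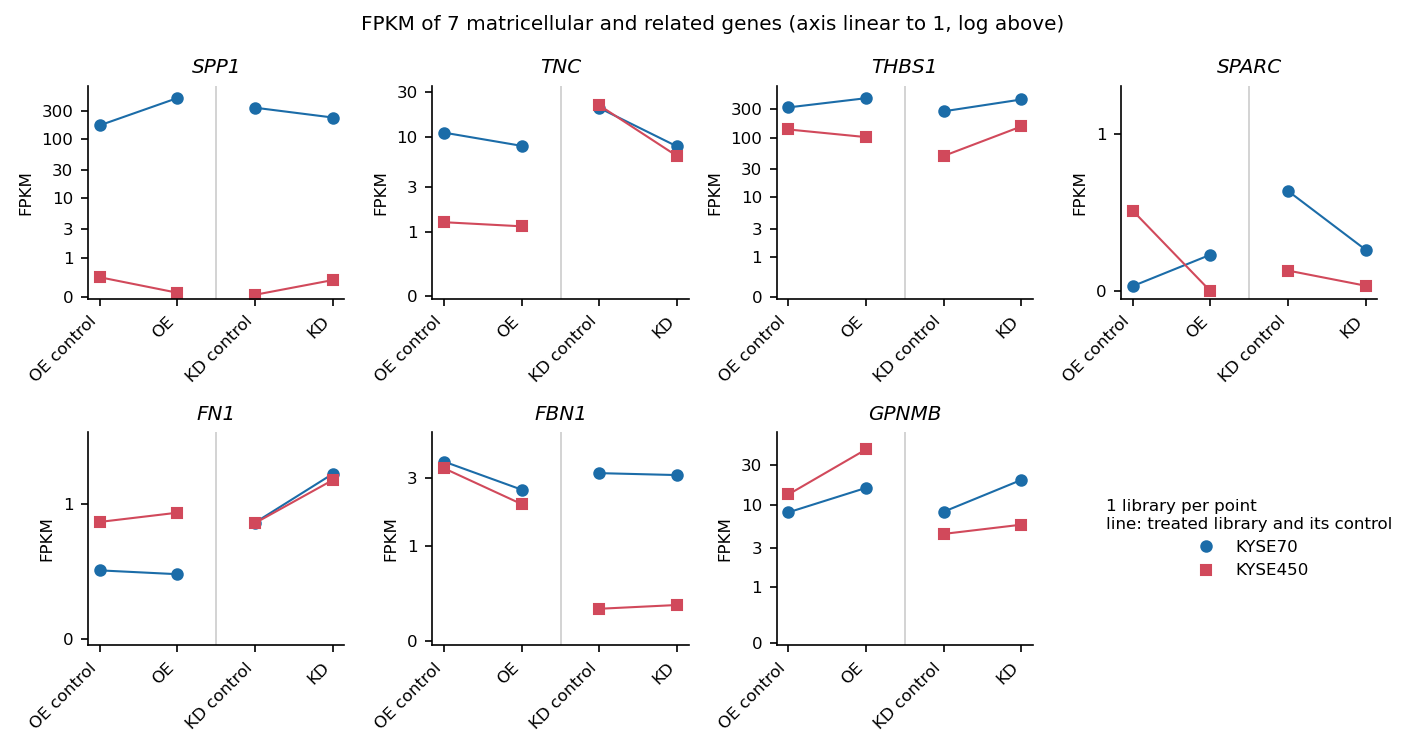
FPKM of each of the 7 genes (y axis, linear up to 1 and logarithmic above) in the 4 groups (x axis; OE, overexpression; KD, knockdown), with KYSE70 as circles and KYSE450 as squares, 1 library per point, and lines joining a treated library to its control. SPP1 in KYSE70 lies between 172 and 498 FPKM and in KYSE450 at or under 0.501, and TNC in KYSE450 stands at 21.8 in the lentiviral control against 1.28 in the plasmid control.

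TNC was lower with knockdown in both lines, the contrast that brought it into this set. In KYSE70 it stood at 20.4 FPKM in the lentiviral control and 8.05 with knockdown (0.394 times, 0.363 to 0.427), and in KYSE450 at 21.8 and 6.38 (0.293 times, 0.270 to 0.318). With GC and length trends removed, the log2 differences were -1.12 in KYSE70 and -1.67 in KYSE450, against -1.24 and -1.63 before. With overexpression TNC was also lower, at 11.3 and 8.16 FPKM in KYSE70 (0.725 times, 0.667 to 0.789). In KYSE450 the plasmid libraries held 1.28 and 1.16 FPKM (0.905 times, 0.705 to 1.16), an interval that includes no difference. In KYSE70 TNC was thus lower with either manipulation.

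The lentiviral controls were the high libraries for TNC. Against the plasmid control, the lentiviral control had 1.82 times as much TNC in KYSE70 (1.70 to 1.95) and 17.0 times as much in KYSE450 (14.3 to 20.4). In KYSE450 both lentiviral libraries lay above both plasmid libraries, while in KYSE70 the knockdown library, at 8.05 FPKM, was the lowest of the 4. With knockdown, TNC was nearer to the plasmid control than the lentiviral control was, in both lines, and whether the knockdown library or the lentiviral control was the one that deviated cannot be told apart. The other tenascins were low: TNXB had at most 1.51 FPKM, and TNN and TNR at most 0.0226 FPKM and 0.00927 FPKM. DEC1, which overlaps TNC on the other strand, had 0.0186 to 0.310 FPKM, and its reads cannot be told apart from those of TNC, since strand use was not given in the sources used here.

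THBS1 was abundant in both lines and higher with knockdown in both. It stood at 277 FPKM in the KYSE70 lentiviral control and 437 with knockdown (1.58 times, 1.54 to 1.62), and at 49.5 and 155 FPKM in KYSE450 (3.12 times, 2.99 to 3.26). The KYSE450 lentiviral control was the lowest of the 8 libraries, at 0.360 times the plasmid control of that line (0.345 to 0.377). The knockdown library, at 155 FPKM, was close to that plasmid control, at 137. With GC and length trends removed, the log2 knockdown differences were 0.53 in KYSE70 and 1.58 in KYSE450, against 0.66 and 1.62 before. With overexpression the lines went apart: 322 to 459 FPKM in KYSE70 (1.43 times, 1.40 to 1.46) and 137 to 102 FPKM in KYSE450 (0.745 times, 0.717 to 0.774). All 4 KYSE70 libraries lay above all 4 of KYSE450, by 2.34-fold to 5.59-fold within a group. FSIP1, which overlaps THBS1 on the other strand, had 0.595 to 0.946 FPKM.

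CD47, the thrombospondin receptor that gives cells a signal against being engulfed, stood at 20.2 to 48.6 FPKM in KYSE70 and 35.8 to 84.6 in KYSE450. Of the other thrombospondins, THBS3 was at 2.48 to 5.75 FPKM in KYSE70 and 5.00 to 7.44 in KYSE450, THBS4 at 0.680 to 1.76 and 0.707 to 1.61, and THBS2 at most at 1.14. THBS1 was the one thrombospondin above 10 FPKM, and in every library it exceeded the others.

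GPNMB was higher with either manipulation in either line. With overexpression it stood at 15.9 FPKM against 8.07 in KYSE70 (1.98 times, 1.71 to 2.28) and at 46.4 against 13.3 in KYSE450 (3.50 times, 3.14 to 3.91), the contrast that brought it into the set. With knockdown it stood at 19.9 FPKM against 8.21 in KYSE70 (2.42 times, 2.09 to 2.82) and at 5.73 against 4.43 in KYSE450 (1.29 times, 1.05 to 1.59). With GC and length trends removed, the KYSE70 knockdown difference was 1.11 in log2, against 1.18 before. The 2 controls of KYSE70 were alike, at 1.02 times (0.856 to 1.21), whereas in KYSE450 the lentiviral control had 0.334 times the plasmid control (0.280 to 0.397). Both lentiviral KYSE450 libraries lay below both plasmid ones.

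FBN1 was lower with overexpression in both lines, which had brought it into the set: 3.90 to 2.47 FPKM in KYSE70 (0.635 times, 0.540 to 0.745) and 3.50 to 1.96 FPKM in KYSE450 (0.560 times, 0.466 to 0.672). With knockdown it stood at 3.23 and 3.13 FPKM in KYSE70 (0.969 times, 0.819 to 1.15) and at 0.336 and 0.376 FPKM in KYSE450 (1.12 times, 0.700 to 1.78), and both intervals include no difference. The KYSE450 lentiviral libraries rested on 43 and 37 reads. They were the lowest of all 8: the lentiviral control had 0.0961 times the FBN1 of the plasmid control in KYSE450 (0.0682 to 0.132) and 0.829 times in KYSE70 (0.711 to 0.967). TNC, GPNMB and FBN1 thus each separated the 2 arms in KYSE450, TNC upward and the others downward. In KYSE70 the arms overlapped for all 3. There FN1 and SPARC separated the arms instead, both upward, while in KYSE450 the arms overlapped for them. FN1 had 0.505 and 0.477 FPKM in the KYSE70 plasmid libraries and 0.859 and 1.40 in the lentiviral ones. SPARC had 0.0315 and 0.231 against 0.637 and 0.263, from 1 to 17 reads. The share of all genes that separated the arms in a single line was not counted, so nothing particular to these genes is read from this. The difference of the arms between the lines was not tested.

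FN1 and SPARC were low throughout, and neither reached the mean of 1 FPKM needed to enter the tests. FN1 stood at 0.505, 0.477, 0.859 and 1.40 FPKM in KYSE70 (plasmid control, overexpression, lentiviral control, knockdown) and at 0.864, 0.932, 0.855 and 1.31 FPKM in KYSE450, from 63 to 168 reads. Its 2 knockdown libraries were the highest of the 8, at 1.63 times the control in KYSE70 (1.26 to 2.11) and 1.53 times in KYSE450 (1.21 to 1.92), while both overexpression intervals include no difference. SPARC stood at 0.0315, 0.231, 0.637 and 0.263 FPKM in KYSE70 and at 0.512, 0, 0.131 and 0.0339 FPKM in KYSE450, from 0 to 17 reads. The 0 in the KYSE450 overexpression library allows up to 0.102 FPKM (3 reads), and against the 14 reads of its control the interval of the ratio reaches up to 0.279. At this depth the knockdown differences of SPARC were not detectable in either line, with intervals of 0.144 to 1.05 in KYSE70 and 0.00549 to 2.32 in KYSE450.

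**Figure D2:**
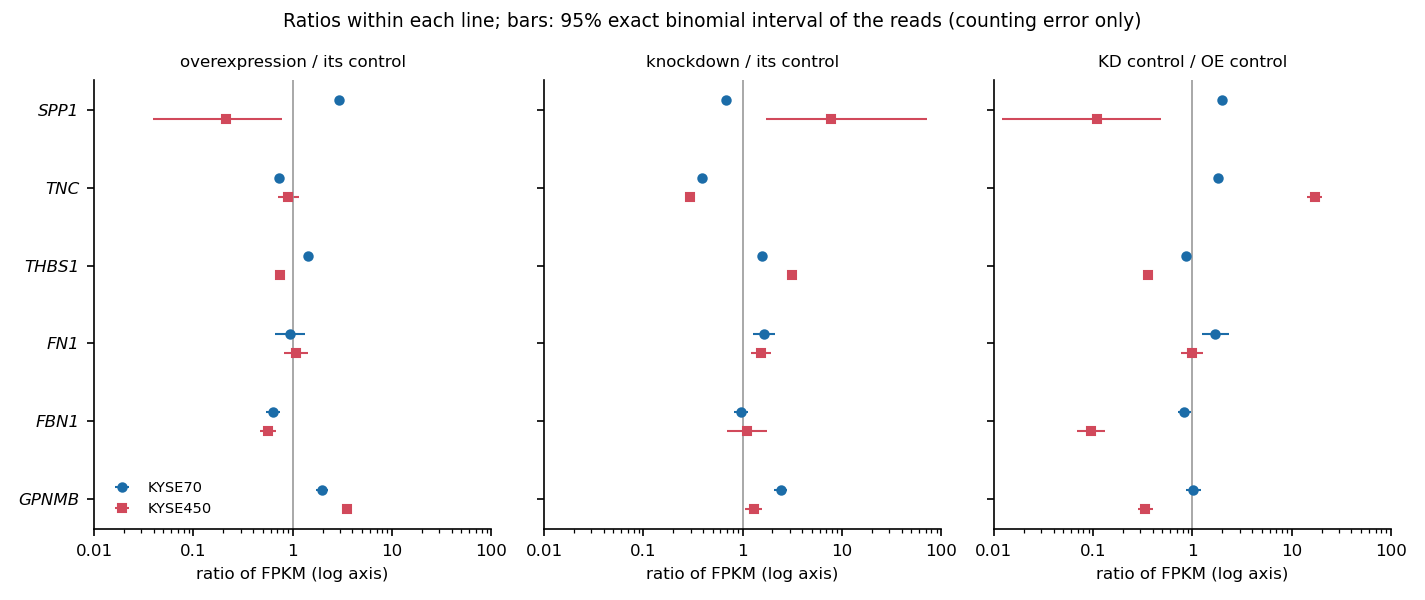
Ratio of FPKM (x axis, logarithmic) for overexpression to its control, knockdown to its control and the lentiviral (KD) control to the plasmid (OE) control, for the genes on the y axis other than SPARC, which had 0 to 17 reads; circles are KYSE70, squares KYSE450, 1 ratio of 2 libraries each, and bars are 95% exact binomial intervals that hold counting error only. TNC with knockdown lies at 0.394 and 0.293 in the lines and at 1.82 and 17.0 between the controls.

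Counted over all 7 genes, overexpression was accompanied by a higher value in both lines for 1 gene (GPNMB), where 23.0% of the 14311 genes tested had that direction, and by a lower value in both lines for 2 (TNC and FBN1), where 27.6% had it. The remaining 4 had opposite signs in the lines, as had 48.7% of genes. Knockdown was accompanied by a higher value in both lines for 3 genes (THBS1, FN1 and GPNMB; 27.1% of all tested) and a lower one for 2 (TNC and SPARC; 25.9%), and 2 had opposite signs (SPP1 and FBN1; 46.4%). FN1 and SPARC are not among the genes tested, and because the set was chosen from these contrasts nothing is read from the counts. Between the lines, 2 of 7 (SPP1 and THBS1) were lower in all KYSE450 libraries, as were 24.1% of genes. No gene of the 7 separated the arms in both lines, where 20.0% of genes lay higher and 10.6% lower in the lentiviral libraries of each line. With knockdown, 3 of 7 genes in KYSE70 (SPP1, TNC and SPARC) and 5 of 7 in KYSE450 (all but SPARC and FN1) were nearer to the plasmid control than the lentiviral control was, against 32.9% and 60.4% of genes.

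In order of FPKM, which is per gene length, KYSE70 held THBS1 (277 to 459), SPP1 (172 to 498), GPNMB (8.07 to 19.9), TNC (8.05 to 20.4), FBN1 (2.47 to 3.90), FN1 and SPARC. The ranges over the 4 libraries overlapped for THBS1 and SPP1, for GPNMB and TNC, and for FN1 and SPARC, so these neighbours did not differ beyond their spread over the libraries. Within each KYSE70 library FN1 nevertheless lay above SPARC, while the order of the other pairs varied between libraries. KYSE450 held THBS1 (49.5 to 155), GPNMB (4.43 to 46.4), TNC (1.16 to 21.8), FBN1 (0.336 to 3.50), FN1 (0.855 to 1.31), SPP1 (0.0549 to 0.501) and SPARC. There THBS1 stood clear of GPNMB and FN1 clear of SPP1, and the other neighbours overlapped. The lengths that the deposited values imply are short, 1599 bases for THBS1 and 960 for SPP1, against 9158 and 2321 bases of exon in GENCODE release 29. Per base of exon, SPP1 came first in KYSE70, with a mean of 129 on that scale against 65.2 for THBS1, so the order of these 2 genes rests on the length used.

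The genes lie apart on GRCh38, in GENCODE release 29: SPP1 on chromosome 4 from 87975650 to 87983426, TNC on 9 from 115019578 to 115118257, THBS1 on 15 from 39581079 to 39599466, SPARC on 5 from 151661096 to 151687165, FN1 on 2 from 215360440 to 215436172, FBN1 on 15 from 48408306 to 48645849 and GPNMB on 7 from 23235967 to 23275108. All are annotated as protein coding. After each line's mean was taken out, TNC ran against GPNMB (Pearson r -0.83 over 8 libraries), FBN1 (-0.77) and THBS1 (-0.72), and GPNMB and FBN1 ran together (0.55). These values pool the lines, and in KYSE450 the arms lay apart for TNC, GPNMB and FBN1. Within KYSE70, FBN1 was highest in the plasmid control (3.90 FPKM), where GPNMB was lowest (8.07). It was lowest with overexpression (2.47), where TNC was also lower (8.16 against 11.3). The pooled FBN1 values thus do not describe KYSE70. The libraries share their treatments and controls, so these values are a description.

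The genes most like each member, by the same measure over 8 libraries among 5338 genes that varied within lines, were as follows. TNC was closest to CDK7 (0.99), the kinase that activates cyclin-dependent kinases, TMEM182 (0.99) and CTC-490G23.2 (0.99). THBS1 was closest to the laminin chain gene LAMC3 (0.95), LBH (0.92) and the polo-like kinase gene PLK2 (0.92). GPNMB was closest to ZNF703 (0.97), RP11-699L21.1 (0.95) and the netrin receptor gene UNC5B (0.94). FBN1 was closest to the GDNF receptor gene GFRA1 (0.97), the calponin gene CNN3 (0.97) and the pseudogene HIST1H2APS4 (0.97), whose reads may be shared with its parents. SPP1, whose pattern rests on KYSE70, was closest to SGK196, LL22NC03-2H8.4 (both 0.89) and SLC25A48 (0.84). FN1 was closest to TTC33, GLDN and GADD45B (all 0.99), and SPARC, at few reads, to FAM182B, RP11-667M19.10 (both 0.88) and RP3-406P24.3 (0.87).

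Receptors of these proteins were counted next. Of 18 receptor genes 13 had a mean of at least 1 FPKM, and 4 rose and 4 fell in KYSE450 against KYSE70 (limma, adjusted p under 0.05), where 54.0% of the genes tested were called, 27.4% higher and 26.6% lower (60.0% at an unadjusted p under 0.05). The integrin genes ITGA4 (log2 difference 4.06, SE 0.25, adjusted p 2.59e-05 in limma) and ITGB6 (3.22, SE 0.23) rose from at most 0.0447 and 0.0667 FPKM in KYSE70 to 9.30 to 26.3 and 5.56 to 12.9 FPKM in KYSE450. ITGB6 pairs with ITGAV, at 49.1 to 63.0 FPKM in KYSE70 and 31.2 to 72.3 in KYSE450, to form a receptor for fibronectin and latent TGF-beta. ITGB1, the common beta chain of fibronectin receptors, fell (-1.64, SE 0.14), as did PTPRZ1, a tenascin-binding phosphatase (-1.40, SE 0.23), and CD44, while CD47 rose (0.86, SE 0.16). The list's median was -0.03, against 0.02 over all genes tested. A line is 1 source of cells, and p measures here how far its difference varies over the 4 groups; the 33 calls over the 4 lists numbered 32 to 34 when any 1 library was left out.

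Between arms, ITGA5, which forms the main fibronectin receptor with ITGB1, rose in the lentiviral libraries (0.94, SE 0.15, adjusted p 0.0323 in limma), as did CD47 (0.93, SE 0.16, adjusted p 0.0370), each higher in both lines. EFEMP2, an elastic fibre glycoprotein gene, rose as well (1.20, SE 0.17, adjusted p 0.0304 in limma). These were the 3 list genes called of 54, where 4.02% of all genes tested were called by limma (27.5% at an unadjusted p under 0.05). Of all genes, 430 were called higher (3.0%) and 145 lower (1.01%). After median-ratio scaling these counts were 267 and 193. Under that scaling CD47 lost its call (0.86, adjusted p 0.0519 in limma), and CTSD, a lysosomal protease gene named here for that reason, was called lower (-0.82, adjusted p 0.0452). The number of list genes called was 12 without knockdown replicate 2 and 0 without any other single library. The receptor median was 0.39, against 0.07 over all genes.

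Neither manipulation gave a call: 0 of 14311 genes, and so 0 of the 54 list genes, had an adjusted p under 0.05 by limma (0.00% in each comparison). At an unadjusted p under 0.05 there were 148 genes with overexpression (1.03%) and 1794 with knockdown (12.5%), and voom on the recovered reads called 0 and 4 of all genes, none of them in the lists. LRP1, the endocytic receptor that clears thrombospondin, stood higher with both manipulations in both lines. The log2 differences, KYSE70 first, were 0.41 and 0.77 with overexpression and 0.49 and 0.56 with knockdown. The plasmid and lentiviral controls lay further apart for LRP1, and in opposite directions. They held 29.9 and 68.5 FPKM in KYSE70, and 83.6 and 32.9 in KYSE450. Of the 13 receptors 10 stood above 0 in each comparison, with medians of 0.14 and 0.15. Over all genes the medians were -0.01 and -0.00, and 46.5% stood above 0 with overexpression and 49.6% with knockdown. Counts above 0, here and for the lists below, are of the mean over the lines, whose signs could differ. With knockdown only CD44, CD47, LRP1 and PTPRZ1 stood higher in both lines, and ITGB1 stood at 0.43 and -0.13. With overexpression ITGA5, ITGB1, ITGB5, ITGB6, LRP1, SDC1 and SDC4 stood higher in both. SDC4, a syndecan that aids fibronectin adhesion, stood at 0.36 with overexpression (0.33 and 0.38) and PTPRZ1 at 0.43 with knockdown (0.12 and 0.74).

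Of 26 other matricellular genes, 8 had a mean of at least 1 FPKM, and 2 rose and 3 fell in KYSE450, against 27.4% and 26.6% of all genes tested. FSTL1, a secreted SPARC relative, rose (4.14, SE 0.52, adjusted p 0.000666 in limma), as did THBS3 (0.51, SE 0.17); FSTL1 had at most 0.236 FPKM in KYSE70 and 4.84 to 52.9 in KYSE450. NOV, a CCN family gene, fell (-3.46, SE 0.61), as did SPARCL1 (-2.95, SE 0.17) and SPOCK1 (-2.37, SE 0.21), both of the SPARC family. The list's median was -0.29. With knockdown, CYR61, another CCN gene and integrin ligand, stood at 0.67 (0.77 and 0.57) and SPARCL1 at 0.23 (0.08 and 0.39), and the median was 0.13 with 6 of 8 above 0 (49.6% of all genes). With overexpression SPOCK2 stood at 0.31 and SPARCL1 at -0.22, and the median was 0.05 with 5 of 8 above 0 (46.5%). Between arms the median was 0.03, with FSTL1 at -1.28 (-0.03 and -2.53, so carried by KYSE450) and THBS3 at 0.55 (0.73 and 0.36).

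Of 24 elastic fibre genes, the company of FBN1, 14 were tested, and 5 rose and 4 fell in KYSE450, near the 27.4% and 26.6% of all genes tested. MFAP5, a microfibril-associated glycoprotein gene, fell most (-6.29, SE 0.18, adjusted p 2.00e-06 in limma): it had 146 to 293 FPKM in KYSE70 and at most 1.97 in KYSE450. EFEMP1 (2.69, SE 0.34), the crosslinking enzyme gene LOX (1.94, SE 0.32) and EMILIN2 (1.55, SE 0.16) rose, and LTBP3, which binds latent TGF-beta (-2.08, SE 0.21), and LOXL2 (-1.47, SE 0.26) fell. FBN2, the second fibrillin, was more abundant than FBN1 in every library, at 11.7 to 48.1 FPKM in KYSE70 and 15.9 to 66.5 in KYSE450. The list's median was 0.26 between lines, 0.06 with overexpression, 0.18 with knockdown and 0.14 between arms. LTBP1 stood at 0.65 with overexpression (1.06 and 0.24) and FBN2 at -0.53 (-0.83 and -0.22), and EFEMP1 at 0.94 (1.57 and 0.31) and LOXL2 at 0.66 (0.83 and 0.49) with knockdown.

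GPNMB is a known target of MITF and the related TFE factors, which drive lysosome genes. Of 21 such genes 19 were tested, and between lines 10 fell in KYSE450, where 26.6% of all genes tested did, with a median of -0.57. The autophagy receptor gene SQSTM1 (-1.86, SE 0.12, adjusted p 3.55e-05 in limma) and the lysosomal enzyme genes GLA (-1.79, SE 0.15) and CTSB (-1.78, SE 0.13) fell most, and HEXA (-0.61, SE 0.14) and FLCN (-0.57, SE 0.12) fell less. GPNMB itself had no such order: it was higher in KYSE450 in the plasmid libraries and lower in the lentiviral ones. With overexpression the list's median was 0.04 with 13 of 19 above 0 (46.5% of all genes); TFEB stood at 0.33 (0.32 and 0.34) and MITF at -0.29 (-0.51 and -0.07). With knockdown the median was 0.02 with 11 of 19 above 0 (49.6%), RRAGD at 0.48 (0.68 and 0.28) and HEXA at 0.43 (0.49 and 0.37). Between arms the median was -0.02, with MITF at 1.07 (1.55 and 0.59) and the GPNMB homologue PMEL at 1.02 (1.66 and 0.38), neither of them called. MITF had 8.20 to 42.5 FPKM across KYSE70 libraries and 3.83 to 6.85 across KYSE450 ones.

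**Figure D3:**
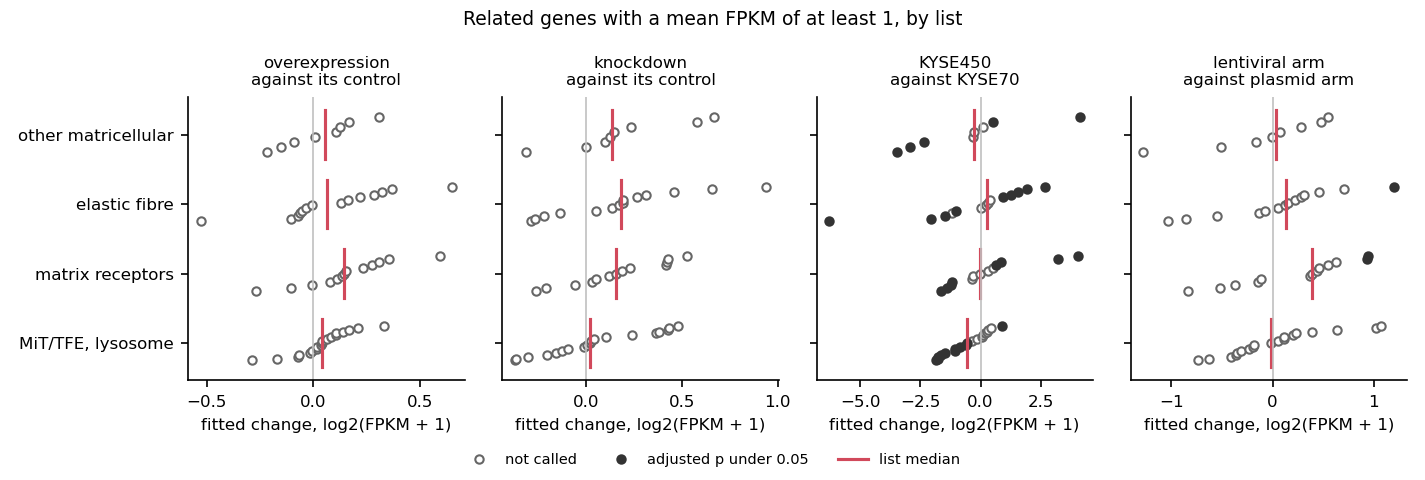
Fitted change on the log2(FPKM + 1) scale (x axis) of the 54 related genes tested, by list (y axis), in 4 comparisons whose axes differ in range; each point is 1 gene, filled where limma's adjusted p was under 0.05, and the vertical bar is the list median. Filled points number 33 between the lines, 3 between the arms and 0 with overexpression or knockdown.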

How the data were processed

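The study sequenced total RNA from 8 libraries, and the authors deposited a table of FPKM for each. TopHat2 2.0.9, HTSeq 0.6.1 and hg19 appear, without roles, in the submitters' processing notes; the annotation, filters and use of strand were not given in the sources used here. The headers leave the unit out, and it was inferred from the values. All 30872 genes above 0 in 2 or more libraries gave whole reads (or fragments), to within 0.02, with a step for each gene scaled by its library. These reads give the depth and the 95% exact binomial intervals of ratios. Such intervals cover counting error only, because PCR copies were not told apart by molecular identifiers.

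The 14311 genes with a mean of 1 FPKM or more were fitted as log2(FPKM + 1), which understates the change of low genes, by limma 3.58.1 (trend) in R 4.3.3, with Benjamini-Hochberg adjustment and a threshold of 0.05. Overexpression and knockdown were fitted with a term for each pair of treated library and control, cell line with group, and the arms with line and group. Replicate 1 is KYSE70 and 2 is KYSE450, so pairs come from the same line (correlation of deviations from group means 0.805 to 0.971). No label names separate cultures: p-values describe the spread among these libraries, which may be technical. The fits were tested on simulated data with independent noise of a fixed size. That noise was not taken from these libraries, so the simulation does not show how the fits behave at their spread. The members and lists were chosen with earlier results of these data known. Named were all members, every called gene of a list in a comparison up to 6 (otherwise the 3 highest and 3 lowest of those called), or, with none called, the 2 with the largest change of 1 sign in both lines, the highest marker of each list, and the 3 genes most like each member with an SD of at least 0.3 after centring within lines. Relatives of TNC and THBS1, ITGAV, FBN2, MITF, TYROBP, COL3A1, THY1, LUM and DCN are given levels outside that rule, chosen after their values were seen. The result of 1 list gene is not reported here. Alternatives changed the pseudocount (0.1), filter (none, or 5), scaling, block and libraries. Voom, removal of GC and length trends by loess, and the exon length were added after the data were seen.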

Additional observations from a re-analysis of the deposited data

Results flagged for a closer look

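Some of the genes named went in opposite directions in the lines, each by more than 1.2-fold and beyond counting error. With 1 pair of libraries per line, the difference between the lines was not tested. SPP1 was 2.90 times its control with overexpression in KYSE70 and 0.214 times in KYSE450, and 0.682 and 7.80 times with knockdown. The KYSE450 ratios rest on 2 to 13 reads per library (intervals 0.0391 to 0.778 and 1.74 to 71.7). The libraries with more SPP1 had a larger median share of 12 other KYSE70 genes (0.353% and 0.349% against 0.153% and 0.160%). The highest shares among those genes went the other way (0.775% and 0.754% against 1.22% and 1.03%). The part of such reads in the result was not tested. THBS1 was 1.43 times its control with overexpression in KYSE70 and 0.745 times in KYSE450, from 4780 to 21992 reads. CYR61 stood at 1.23 and 0.813 times its control with overexpression, and LOXL2 at 1.79 and 0.639. FBN2 stood at 0.525 times its control with knockdown in KYSE70 and 1.28 in KYSE450.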

How the results depend on the processing

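Leaving out 1 library at a time gave 0 to 1 list genes called with overexpression, 0 to 18 with knockdown, 32 to 34 between lines and 0 to 12 between arms. The knockdown count was 18 without either KYSE450 lentiviral library and 5 without either KYSE70 one, with the 1 pair left taken to vary as the plasmid pairs do; over all genes, where 0 were called, the counts were 36 to 4833. Overexpression went from 0 to at most 12 of all genes and the arms from 575 to between 0 and 2463. The plasmid libraries fitted alone called 1 (12 of all genes), and the lentiviral ones 37 of all genes. Knockdown called 3 of all genes at a pseudocount of 0.1 and 4 of all genes with voom, none of them in the lists. Between arms, 3 list genes became 0 without a filter, with no replicate block and for the lentiviral control minus the plasmid control alone (also 0 of all genes), 8 with voom (884) and 5 with GC and length trends removed; the cause was not tested. The fit with no replicate block called 30 list genes between lines and 0 with overexpression or knockdown, so it changed no other count by over 1.5 times. Members higher in both lines between arms numbered 2, and 1 between the controls. Per base of exon, 3 of 7 members kept their rank in KYSE70 and all 7 in KYSE450. Of 83 member changes recomputed under another pseudocount, scaling, contrast or trend removal, 71 moved by less than the spread between pairs and 4 turned sign: SPP1 with both manipulations at a pseudocount of 0.1 (-0.0018 and 0.61) and between the controls (0.24), and FBN1 with knockdown when trends were removed (-0.06). Leaving out 1 library turned the sign of 28 of 168 member changes. With 2 or 4 pairs, leaving 1 out cannot move a mean beyond the SD of the pairs. The spread between pairs is therefore no check on these sign changes. Depth limits SPARC, and SPP1 in KYSE450.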
